A study of Sus scrofa with 20 samples.

Results

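The genes described here make up the class I antigen presentation pathway of the pig: the class I heavy chains SLA-1, SLA-2 and SLA-3, the peptide transporter subunits TAP1 and TAP2, the loading chaperone TAPBP, the immunoproteasome subunits PSMB8 and PSMB9, the class I light chain B2M and the transactivator NLRC5. They were taken by name: every probeset whose array annotation gives 1 of these 10 symbols was a member, and for each gene the probeset with the highest mean over all pigs stood for the gene, with the others as a check. Of 38 such probesets on the array, 18 held values, which covered 8 of the 10 genes among 10567 named genes and 25092 probesets with values. The probesets of B2M and TAPBP held no values in the table used here, and both genes were not analysed.

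The expression values came from scraped caecal mucosa of 20 crossbred pigs that differed in feed efficiency, 10 of high and 10 of low feed efficiency, with 1 array per pig. The pigs came from 5 sows, and each litter gave 4 pigs, namely a male and a female of each efficiency group. Littermates had shared a pen, so litter and pen cannot be told apart, and the slaughter batch of the pigs was not analysed here. All values are log2 expression values after array normalization, so that a difference of 1 is a factor of 2. The 20 arrays correlated with each other at r = 0.942 to 0.974, and the lowest median correlation with the others, 0.958, belonged to the low-efficiency male of sow 1406.

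Class I molecules carry peptides from inside the cell to its surface, where cytotoxic T cells read them. The peptides are cut by the proteasome, whose immune form holds PSMB8 and PSMB9, and are pumped by the TAP1 and TAP2 dimer into the endoplasmic reticulum, where they are loaded on a heavy chain paired with B2M. NLRC5 drives transcription of class I genes, and interferon gamma raises most genes of the pathway. In the gut, epithelial and immune cells of the mucosa both carry class I, and in such a bulk sample fewer cells of a type and less RNA per cell cannot be told apart.

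On the Sscrofa11.1 assembly the 3 heavy chain genes lie on chromosome 7, SLA-1 at 22824137 to 22920154, SLA-2 at 22916747 to 22959405 and SLA-3 at 22938211 to 22942735. TAP2 (25045085 to 25056915), PSMB8 (25058456 to 25061666), TAP1 (25062772 to 25071989) and PSMB9 (25072133 to 25077508) follow on the same chromosome within a span of 32424 bases, with 143 bases between TAP1 and PSMB9. NLRC5 lies on chromosome 6, at 18933179 to 19036288. The names of the heavy chains are uncertain, because the gene table used here lists SLA-1 as an older name of 3 other genes, SLA-3 among them. Several heavy chain probesets are marked by their names as shared between transcripts. The heavy chains are also highly polymorphic, and their probesets were therefore kept apart throughout.

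None of the class I genes passed the test for feed efficiency, but the 7 that entered it all had a higher mean in the high-efficiency pigs. The differences ran between 0.06 for TAP1 and 0.24 for PSMB9, with a median of 0.16, against a median of 0.0035 over all 23140 probesets tested, of which 51.1% were above 0. After Benjamini-Hochberg adjustment of the limma test, 0 of 7 were called, as were 0% of all probesets. At an unadjusted p under 0.05 stood 1 of 7 genes, TAP2, against 4.48% of all probesets in either direction and 2.54% higher in high-efficiency pigs. The 7 values are not independent of each other. Without the low-efficiency male of sow 1406, 6 of 7 were above 0, and without the whole litter of sow 1406, 5 of 7 were, with a median of 0.094.

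PSMB9, a catalytic subunit of the immunoproteasome, showed the largest difference of the 7 tested genes. Its level ran from 8.93 to 9.57 with a median of 9.37 in high-efficiency pigs, against 8.70 to 9.51 with a median of 9.07 in low-efficiency pigs. The ranges overlapped over most of their length, and of 10 pairs of littermates of the same sex, 7 had the higher value in the high-efficiency animal. The means were 9.32 ± 0.20 and 9.08 ± 0.26 (SD, n = 10 each), a difference of 0.24 with a standard error of 0.12, or 1.18-fold (limma, unadjusted p = 0.052, adjusted p = 0.98). Among the other 3 PSMB9 probesets, the differences were 0.21 for probeset 2, 0.09 for probeset 3 and 0.44 for the variable probeset 4, the last from the fit without the filter on standard deviation.

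TAP2, the other subunit of the peptide transporter, ran from 9.71 to 10.50 with a median of 9.95 in high-efficiency pigs, against 9.52 to 10.19 with a median of 9.84 in low-efficiency pigs. In 8 of 10 pairs the high-efficiency littermate had more, by at most 0.55. The mean difference was 0.20 with a standard error of 0.09, a factor of 1.15 (limma, unadjusted p = 0.0457, adjusted p = 0.98). Without the litter of sow 1410 the difference was 0.13. TAP2 has only this probeset with values.

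TAP1, its partner, behaved differently between pairs. Its level ran from 6.44 to 7.35 with a median of 6.55 in high-efficiency pigs, against 5.80 to 7.10 with a median of 6.76 in low-efficiency pigs. Only 2 of 10 pairs had the higher value in the high-efficiency animal, and the mean difference of 0.06 (standard error 0.16, limma adjusted p = 0.99) came from these 2 pairs, the males of sow 1406 with 7.35 in the high-efficiency and 5.80 in the low-efficiency pig, and the females of sow 1417 with 7.03 in the high-efficiency and 6.27 in the low-efficiency pig. Without that low-efficiency male the difference was -0.09, and without the litter of sow 1406 it was -0.12, and without that of sow 1417 it was -0.016. The direction of TAP1 was therefore not settled.

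NLRC5, the class I transactivator, ran from 6.33 to 7.40 with a median of 6.74 in high-efficiency pigs, against 5.88 to 7.02 with a median of 6.76 in low-efficiency pigs. The medians were nearly equal although the mean difference was 0.21 with a standard error of 0.15 (limma, unadjusted p = 0.183, adjusted p = 0.98). It was 0.13 without the low-efficiency male of sow 1406 and 0.14 without the litter of sow 1435. The 2 further NLRC5 probesets had differences of 0.04 and -0.10.

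PSMB8, the second immunoproteasome subunit, had 1 probeset with values out of 8, and it was dim and variable, with a mean of 3.92 and a standard deviation of 0.94. The filter on standard deviation removed it from the feed efficiency test, so its value comes from the fit without that filter. Levels ran from 2.64 to 5.72 with a median of 4.57 in high-efficiency pigs, against 1.87 to 4.77 with a median of 3.45 in low-efficiency pigs. The difference was 0.72 with a standard error of 0.37 (limma, unadjusted p = 0.0697, adjusted p = 0.98), in a fit where 4.39% of all probesets had an unadjusted p under 0.05. In 7 of 10 pairs the high-efficiency littermate had more PSMB8, and leaving out single litters moved it between 0.46 and 1.08.

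**Figure D1:**
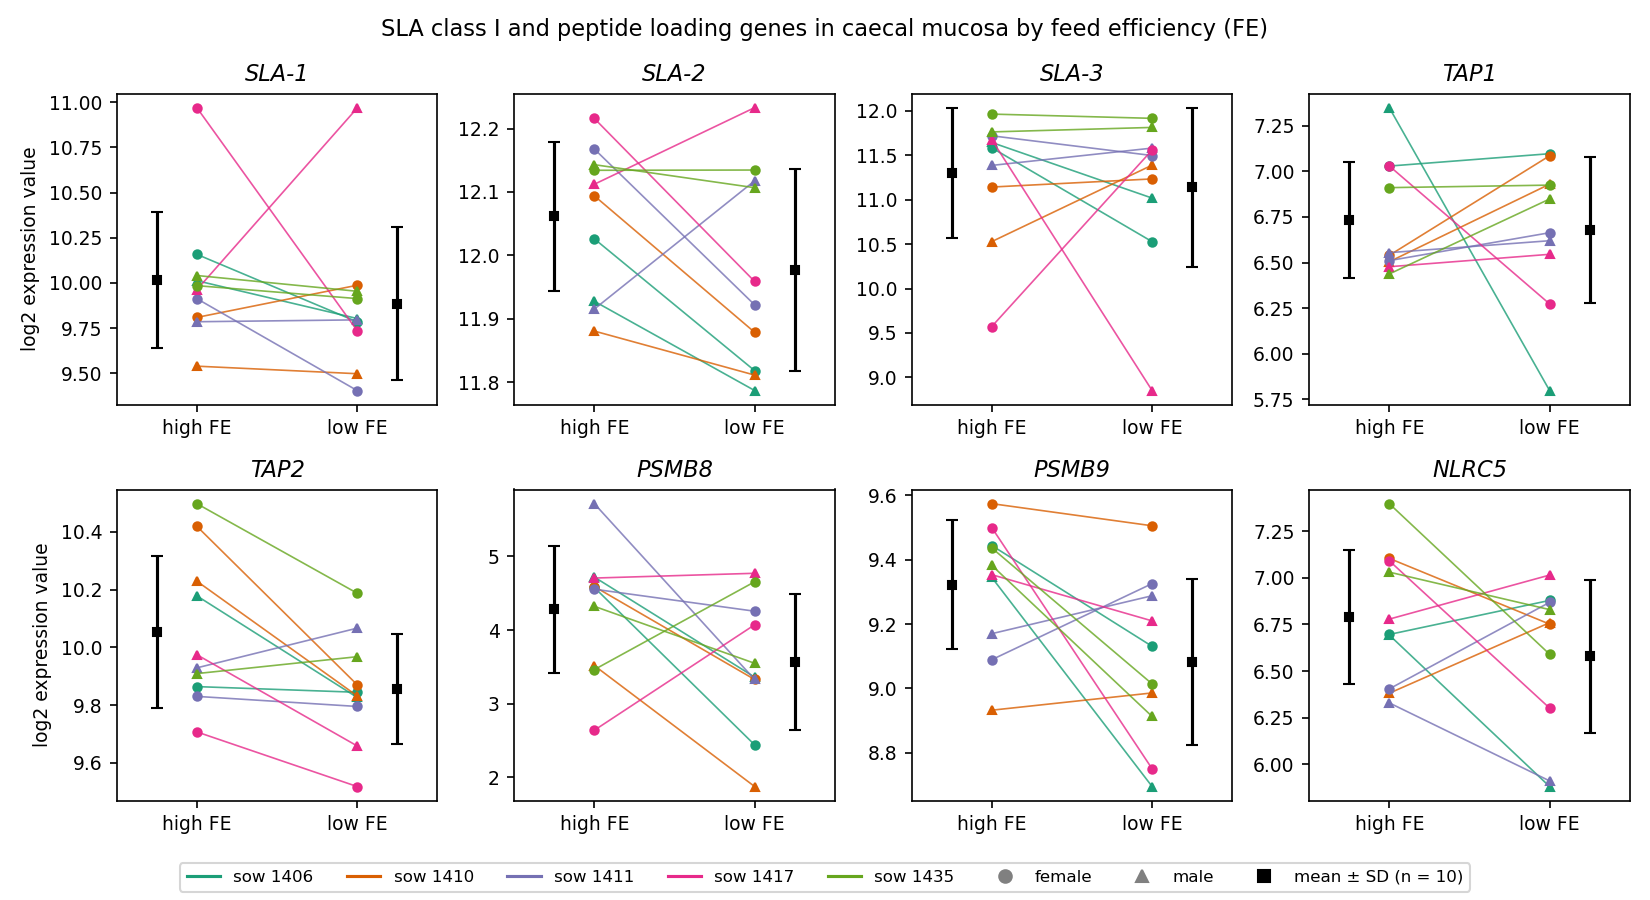
Log2 expression values of the 8 class I genes, 1 panel per gene, with high-efficiency pigs to the left of low-efficiency pigs. Lines join littermates of the same sex, colours mark sows, and squares with bars show the mean and SD of 10 pigs. PSMB9 and TAP2 had the higher value in the high-efficiency animal of 7 and 8 out of 10 pairs, while TAP1 had it in 2 of 10, the males of sow 1406 and the females of sow 1417.

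The heavy chains SLA-1, SLA-2 and SLA-3 carry the peptide at the cell surface. SLA-1 ran from 9.54 to 10.97 with a median of 9.97 in high-efficiency pigs, against 9.40 to 10.97 with a median of 9.80 in low-efficiency pigs, and differed by 0.13 with a standard error of 0.14. Leaving out 1 pig moved this to between 0.047, without the low-efficiency female of sow 1417, and 0.22, without the low-efficiency male of sow 1417. SLA-2 ran from 11.88 to 12.22 with a median of 12.10 in high-efficiency pigs, against 11.79 to 12.23 with a median of 11.94 in low-efficiency pigs, and differed by 0.08 with a standard error of 0.07. The standard deviation of SLA-2 over all pigs was 0.14, lower than that of all but 2.33% of the probesets. SLA-3 ran from 9.57 to 11.96 with a median of 11.61 in high-efficiency pigs, against 8.85 to 11.92 with a median of 11.44 in low-efficiency pigs, and differed by 0.16 with a standard error of 0.29. The limma adjusted p of all 3 was 0.98.

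Probesets of the same heavy chain did not give the same difference. SLA-3 probeset 2 differed by 0.96 with a standard error of 0.38 (limma, unadjusted p = 0.0217, adjusted p = 0.98), since it ran from 10.34 to 11.20 in high-efficiency pigs, against 6.59 to 11.14 in low-efficiency pigs. The lowest values, 6.59 and 8.70, were those of the low-efficiency female and male of sow 1406, whose high-efficiency littermates had 11.15 and 11.20. Without that litter the difference was 0.32. For SLA-3 probeset 3, 9 of 10 pairs had the higher value in the high-efficiency animal, with a difference of 0.14 (standard error 0.07, limma unadjusted p = 0.0695). The same count was 5 of 10 for SLA-3 probeset 1, 8 of 10 for probeset 2 and 4 of 10 for probeset 4. SLA-3 probeset 4 had a difference of -0.18. Over all member probesets, 13 of the 15 tested were above 0, against 51.1% of all probesets, and 2 had an unadjusted p under 0.05, against 4.48%.

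**Figure D2:**
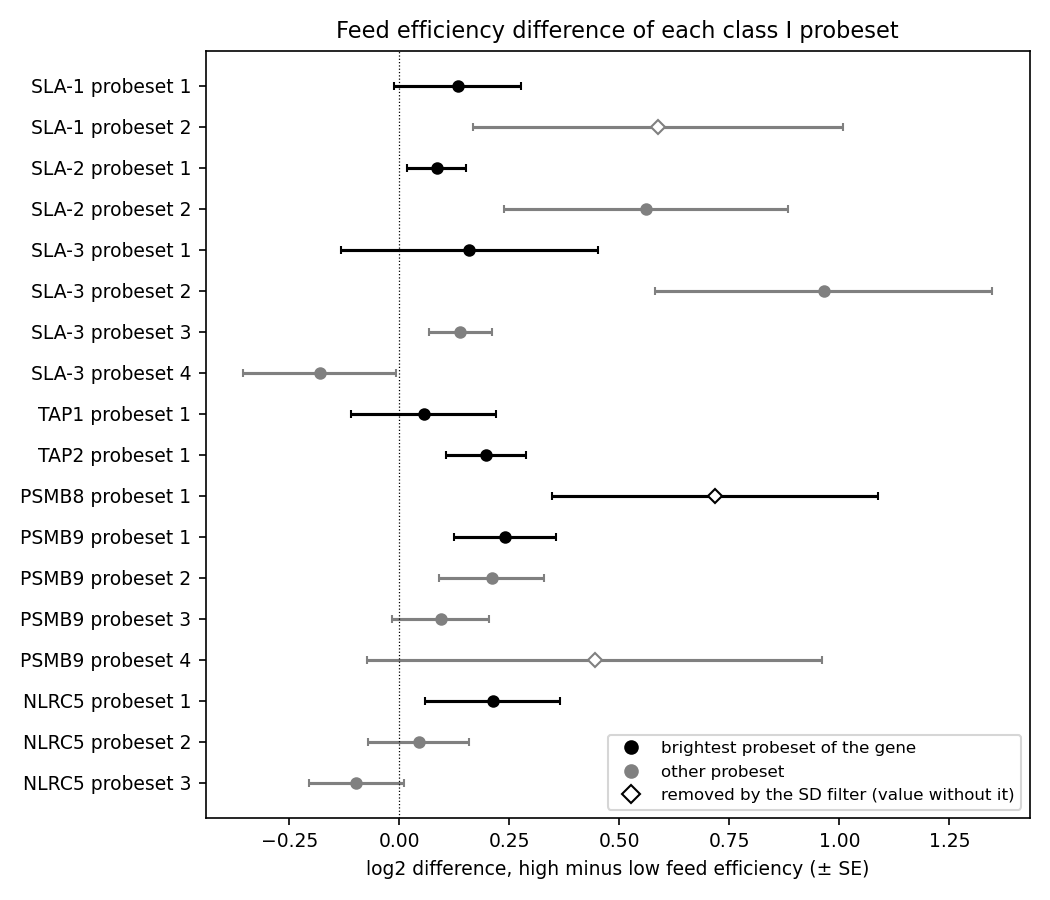
Difference of each member probeset between high- and low-efficiency pigs on the log2 scale, high minus low, with bars of 1 standard error from limma with sow in the model (20 pigs). Black points are the probesets that stand for a gene, grey points the others, and open diamonds those removed by the filter on standard deviation; SLA-3 probeset 2 lies at 0.96 and SLA-3 probeset 4 at -0.18.

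No class I gene passed the test for litter. The limma F test over sows, adjusted for efficiency group and for sex, called 0 of 8 members after adjustment, against 0.126% of 23837 probesets, and 0 of 8 at an unadjusted p under 0.05, against 16.1% of all probesets. The share of the variance that lay between litters was 53.5% for SLA-2, 43.1% for SLA-1, 39.5% for TAP2 and 39.2% for SLA-3, against a median of 27.4% over all probesets. The same share was 29.0% for NLRC5, 16.3% for PSMB8, 8.62% for TAP1 and 1.63% for PSMB9. Other probesets of the heavy chains differed: 5.38% for SLA-1 probeset 2 and 27.1% for SLA-2 probeset 2. SLA-3 probesets 2, 3 and 4 had 26.4%, 59.3% and 30.2%. Within the litter of sow 1417 the SD was 0.65 for SLA-1 and 1.42 for SLA-3.

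SLA-2 averaged 12.13 in the litters of sows 1417 and 1435 (SD 0.13 and 0.016, n = 4 each) and 11.89 in the litter of sow 1406 (SD 0.11, n = 4). TAP2 averaged 10.14 in the litter of sow 1435 (SD 0.27, n = 4) and 9.71 in that of sow 1417 (SD 0.19, n = 4). PSMB9, by contrast, averaged between 9.15 and 9.25 in all 5 litters. Of all 18 member probesets, only SLA-3 probeset 3 had an unadjusted p under 0.05 for litter (limma F = 5.41, p = 0.00589, adjusted p = 0.18), with 59.3% of its variance between litters.

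**Figure D3:**
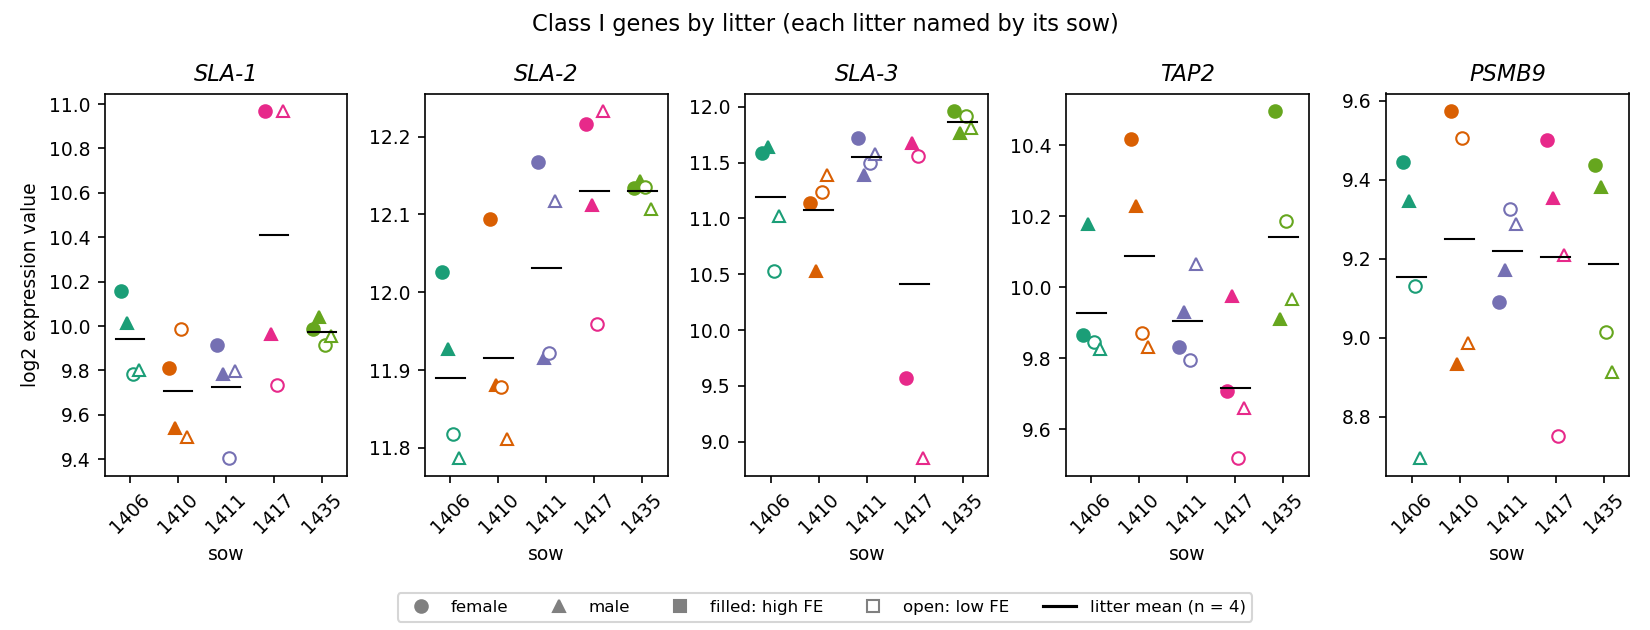
Log2 expression values of 5 class I genes by litter, with 4 pigs per sow and a bar at the litter mean. High-efficiency pigs (filled) stand to the left of low-efficiency pigs (open) within a litter, circles are females and triangles males. The litter means of PSMB9 lie between 9.15 and 9.25, and those of SLA-2 between 11.89 and 12.13.

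Neither sex nor its interaction with feed efficiency was called for a class I gene. Both counts were 0 of the tested members after adjustment and 0 at an unadjusted p under 0.05, against 0% and 4.29% of all probesets for sex and 0% and 4.11% for the interaction. The largest male minus female differences among the brightest probesets were -0.25 for NLRC5 and -0.20 for TAP1. For SLA-1 the difference between high- and low-efficiency pigs was -0.14 in males and 0.40 in females (limma interaction, unadjusted p = 0.0688, adjusted p = 0.999). In the litter of sow 1417 alone it was -1.0 in the males and 1.23 in the females, and over the 4 other litters it averaged 0.08 in males and 0.19 in females.

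In the litter of sow 1417, 2 pigs stood apart in both SLA-1 and SLA-3. The high-efficiency female and the low-efficiency male of sow 1417 both had 10.97 for SLA-1, whereas the other 18 pigs ran from 9.40 to 10.16. For SLA-3 the same female had 9.57 and the same male 8.85, whereas the other 18 pigs ran from 10.53 to 11.96. Their 2 littermates had 9.96 and 9.74 for SLA-1 and 11.68 and 11.56 for SLA-3. SLA-2 probeset 1 was also highest in these 2 pigs, at 12.22 in the female and 12.23 in the male. For SLA-2 probeset 2 they had 6.54 and 6.41, below their 2 littermates at 7.47 and 6.84. For 1 of the 2 SLA-5 probesets the female had 8.45 and the male 8.47, against at most 8.31 in the other litters. For the class II gene SLA-DMB the female had 8.21, against at most 7.883, while the male was barely higher at 7.890. In the class II genes SLA-DRA and SLA-DQB1 only the female lay above the other litters, and in SLA-DQA1 neither pig did. For SLA-1 probeset 2, SLA-2 probeset 2 and the other SLA-3 probesets, both pigs lay within the range of the remaining litters. The 2 pigs belonged to opposite efficiency groups and sexes, and they were picked out by these values, so no test was made of them.

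**Figure D4:**
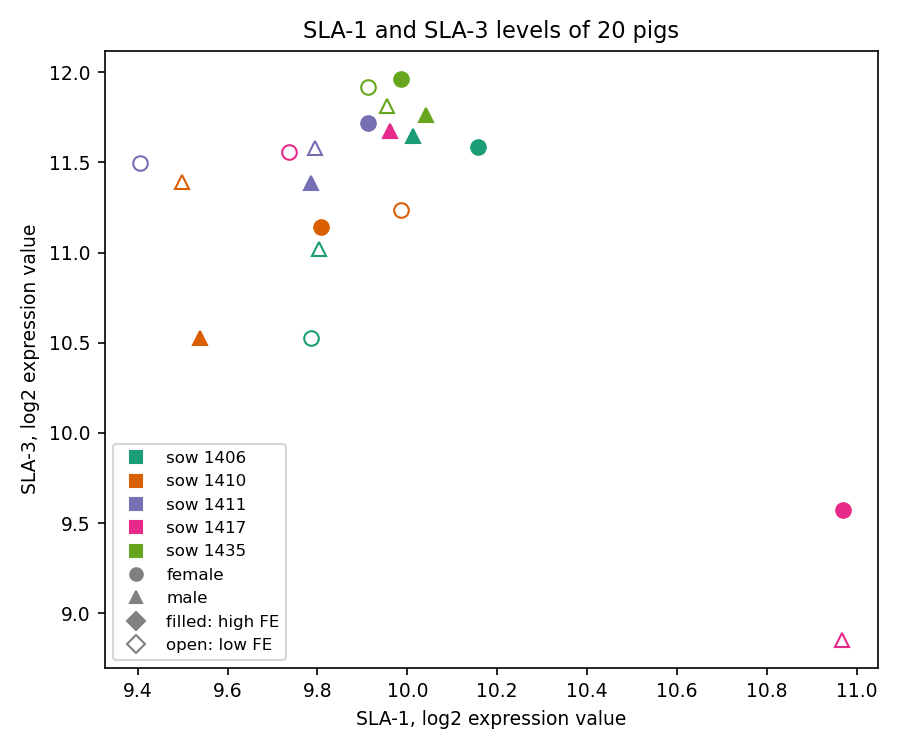
SLA-1 against SLA-3, both as log2 expression values, with 1 point per pig (n = 20), coloured by sow. Circles are females and triangles males, filled points high-efficiency and open points low-efficiency pigs. The 2 points at the lower right, at 10.97 for SLA-1, are the high-efficiency female and the low-efficiency male of sow 1417.

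Co-variation between the class I genes was examined from pig to pig within litters, over 28 pairs of genes. The within-litter correlation was above 0 in 22 of 28 pairs and had a median of 0.21. The permutation p-values below are not adjusted for the 28 pairs, since the genes were chosen with earlier results known. Those given over all pigs come from shuffling pigs across litters and so ignore the litter. When each gene in turn was set against all other probesets, 0 pairs of different members were called after adjustment. The only calls were PSMB9 with its own probeset 2 (r = 0.95, limma adjusted p = 0.0188) and TAP1 with 1 probeset that has no gene symbol (r = 0.88, limma adjusted p = 0.0222), each 0.0042% of 23836 probesets, against 0% with the other 6 genes.

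PSMB9 and NLRC5 had the highest correlation, r = 0.73 within litters (within-litter permutation p = 0.00225) and rho = 0.69 (permutation p = 0.0018). Over all pigs r was 0.61 (permutation p = 0.00481) and rho 0.60 (permutation p = 0.00588), and r was 0.42 without the 2 pigs farthest from the median of PSMB9. The slope was positive in 5 of 5 litters, but set against all probesets the pair was not called (limma adjusted p = 0.64). With NLRC5 probesets 2 and 3, PSMB9 had a within-litter r of 0.50 and 0.54. NLRC5 had 0.76, 0.69 and -0.16 with PSMB9 probesets 2, 3 and 4.

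SLA-1 and SLA-2 followed, with r = 0.69 (within-litter permutation p = 0.00289) and rho = 0.72 (permutation p = 0.00291), and a positive slope in 5 of 5 litters. Over all pigs r was 0.64 (permutation p = 0.00059) and rho 0.615 (permutation p = 0.00472), and r was 0.51 without the 2 pigs farthest from the median of SLA-1. These probesets may share sequence, and in limma the pair was not called. With SLA-2 probeset 2, SLA-1 had a within-litter r of 0.03, while SLA-2 had 0.47 with the dim SLA-1 probeset 2. TAP1 went with NLRC5 (r = 0.55, permutation p = 0.0485) and with PSMB9 (r = 0.53, permutation p = 0.0616), but without the low-efficiency male of sow 1406 these were 0.26 and 0.29.

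SLA-1 and SLA-3 had r = -0.66 within litters (permutation p = 0.314) and rho = -0.21 (permutation p = 0.445), although the slope was positive in 3 of 5 litters. Over all pigs r was -0.65 (permutation p = 0.00683) but rho 0.14 (permutation p = 0.563), and r turned to 0.46 without the 2 pigs farthest from the median of SLA-1. The relation rested on the 2 pigs of sow 1417, and without that litter the within-litter r was 0.48. It was also particular to this SLA-3 probeset: SLA-1 had a within-litter r of 0.28, -0.05 and 0.27 with SLA-3 probesets 2, 3 and 4.

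**Figure D5:**
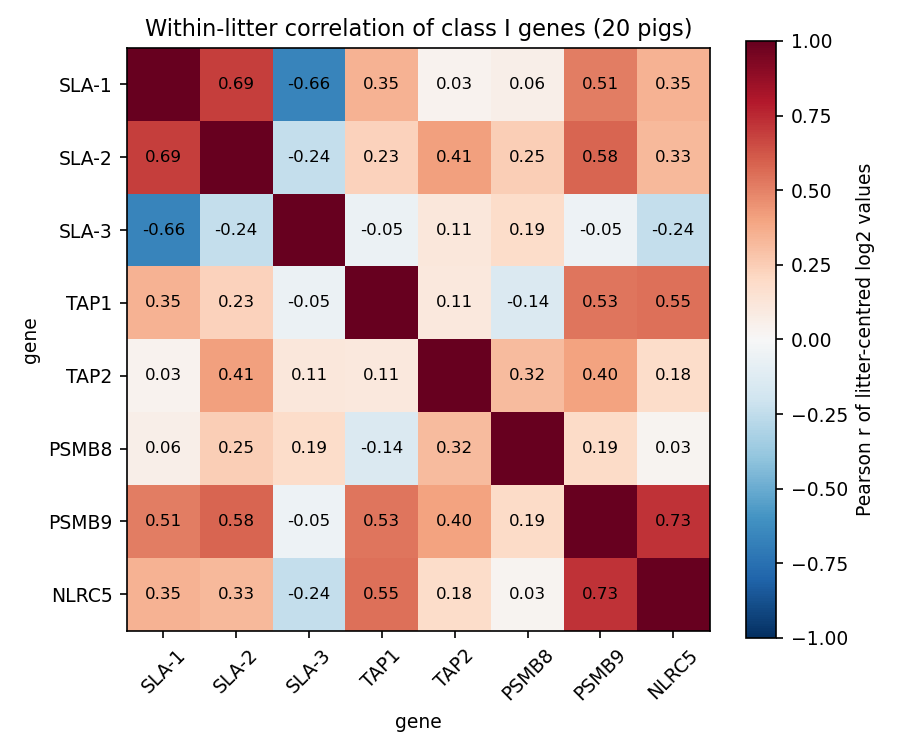
Pearson correlation between the 8 class I genes over 20 pigs, from log2 values centred on each litter; both axes list the genes and the colour scale runs from -1 to 1. PSMB9 and NLRC5 stand at 0.73, SLA-1 and SLA-2 at 0.69, and SLA-1 and SLA-3 at -0.66.

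The genes whose within-litter pattern was most like a single member were looked up after the values had been seen. Nearest to TAP1 among named genes was IRF9, a transcription factor of interferon signalling (r = 0.87, limma adjusted p = 0.28). CCNE1 (0.85), ZNF574 (0.82), FBXO6 (0.81) and TBX21 (0.78) followed, and STAT2, the partner of IRF9, stood lower at r = 0.76. The other listed genes stimulated by type I interferon ran from -0.25 for IFI44 to 0.44 for CMPK2. Without the low-efficiency male of sow 1406, IRF9 and STAT2 stood at 0.68 and 0.54. Nearest to PSMB9 were SCLT1 (0.87), TAGAP (0.86) and PSME2, a subunit of the proteasome activator (r = 0.84, limma adjusted p = 0.47). The r of PSME2 ran between 0.79 and 0.89 when any 1 pig was left out.

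Measured against the mean of the 8 genes, the 10 most similar of 10338 genes outside the members were CXCR3 (a chemokine receptor of activated T cells, r = 0.85, rho = 0.85), CDCA4 (0.83), GNB2 (0.83), ARPC4 (0.82), LOC100523440 (0.81), DCTN4 (0.80), SLC5A1 (the intestinal glucose transporter, 0.79), CARHSP1 (0.79), RAB4B (0.78) and MRPS34 (0.78), all r. The lowest were FBXL5 (-0.81), RUNX1 (-0.76) and KIFAP3 (-0.76). Of the 10338 genes, 0.59% had r above 0.7. The mean is weighted to the members that vary most, the dim PSMB8 (SD 0.94 over all pigs) and SLA-3 (SD 0.80), against 0.14 for SLA-2. DCTN4 was also near PSMB8 taken alone (r = 0.82). When each member was instead set against the mean of the other members, PSMB9 had the highest likeness (r = 0.62). SLA-1 (0.05) and SLA-3 (-0.10) had hardly any.

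Genes that work beside the class I pathway were compared by lists. The other immunoproteasome and activator genes were above 0 in 2 of 3, with a median difference of 0.06, and PSME2 differed by 0.14. The list of loading partners had 3 measured genes, all below 0, with PDIA3 at -0.04 and TAPBPL at -0.20. B4GALT1, at -0.17, was on that list but is a glycosylation enzyme and not part of the loading complex. The 2 constitutive catalytic subunits, PSMB5 and PSMB7, were above 0 (median 0.04). Transcription control genes were above 0 in 4 of 6 (median 0.02), with IRF2 at 0.22 and CREB1 at -0.18. None of these lists held a gene with an adjusted or unadjusted p under 0.05 for feed efficiency.

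Over their tested genes, the lists of interferon genes had medians near or below 0. The interferon gamma axis was above 0 in 4 of 7 tested genes (median 0.02), with IDO1 at 0.59, SOCS1 at 0.21 and IFNGR1 at -0.24. CXCL9 (mean 6.41 in high- against 5.77 in low-efficiency pigs) and CXCL10 (6.28 against 5.78) were removed by the filter on standard deviation. Genes stimulated by type I interferon were above 0 in only 3 of 14 tested (median -0.14), with OAS1 at -0.32, DDX58 at -0.32 and USP18 at -0.20. The same filter removed RSAD2 (6.44 against 6.06), IFIH1 (3.29 against 2.69), IFIT2 (3.62 against 3.58) and IFI44 (4.96 against 5.66). The other class I and class I-like genes were above 0 in 7 of 8 (median 0.04), with SLA-8 at 0.19. The litter F test gave CD1D, a lipid-presenting relative, 7.12 (limma, unadjusted p = 0.00169, adjusted p = 0.13). In the 3 lists no tested gene had an unadjusted p under 0.05 for feed efficiency.

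Class II presentation, which serves helper T cells, was above 0 in 5 of 5 tested genes with a median of 0.25. SLA-DQA1 differed by 0.33 and SLA-DMB by 0.32 (limma, unadjusted p = 0.0296 and 0.0488, adjusted p = 0.98 for both), and SLA-DRA by 0.25. Within litters the r with PSMB9 ran from 0.17 for SLA-DOA to 0.70 for SLA-DQB1, with 0.69 for SLA-DMB. None of these pairs was called (lowest limma adjusted p = 0.71). No list held a gene with an adjusted p under 0.05 for feed efficiency.

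Markers of immune cells were compared in the same samples, and none was called for feed efficiency after adjustment. The macrophage and dendritic cell list was above 0 in 9 of 9 genes (median 0.19), and 5 of the 9 had an unadjusted p under 0.05, against 2.54% of all probesets in this direction, its mean level running from 6.60 to 7.20 in high-efficiency pigs, against 6.42 to 6.97 in low-efficiency pigs. The T and natural killer cell list was above 0 in 13 of 16 genes (median 0.06), 3 of them at an unadjusted p under 0.05, including GZMH at 0.39 and NKG7 at 0.33, and its level ran from 6.21 to 6.62 in high-efficiency pigs, against 5.83 to 6.56 in low-efficiency pigs. Plasma cell markers were above 0 in 7 of 7 (median 0.13), 2 of them at an unadjusted p under 0.05. B cell markers were above 0 in 3 of 5 (median 0.02), with 1 at an unadjusted p under 0.05, PAX5 at -0.36, and MS4A1 passed the litter test (limma adjusted p = 0.0397).

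Mature colonocyte markers were above 0 in 0 of 4 (median -0.15), with TMIGD1 at -0.34 the only one of them at an unadjusted p under 0.05. Epithelial markers were above 0 in 5 of 8 (median 0.05), goblet cell markers in 4 of 6 (0.05), endothelial markers in 3 of 6 (0.04), fibroblast and matrix markers in 9 of 9 (0.08) and smooth muscle markers in 6 of 7 (0.11). The fibroblast and smooth muscle lists each held 1 gene at an unadjusted p under 0.05, higher in high-efficiency pigs, and the epithelial, goblet and endothelial lists held 0. Means over all pigs ran from 7.89 for CLDN4 to 12.64 for KRT19 in the epithelial list. In the goblet list they ran from 6.90 for REP15 to 11.14 for SPINK4, against a median of 4.77 over all probesets. The part of these markers in the class I values was not tested.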

How the data were processed

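Caecal mucosa RNA of 20 pigs was measured on snowball arrays (Affymetrix), 1 per pig. The deposited values are log2 expression values that the authors obtained by robust multichip average normalization with a custom probeset layout on Sscrofa11.1; the labels name GCOS 1.1.1. Of 47845 rows, 25092 held values. Gene symbols came from the platform annotation, with 331 updated through RefSeq (16361 probesets with 1 symbol, 8731 without). Precision is limited by the number of arrays. The members and lists were chosen with earlier results of these data known.

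Groups, sows and sex came from the labels. limma 3.58.1 in R 4.3.3 was fitted with sow and feed efficiency over 20 pigs, after removal of probesets with a mean below the 5% quantile (1.62) and of 697 whose SD exceeded the 95% quantile in both groups, leaving 23140. Litter, sex and co-variation used the mean filter alone (23837 probesets), and the interaction of efficiency with sex both filters. Calls needed a Benjamini-Hochberg adjusted p under 0.05. Correlations between members used 100000 permutations, also within litters. Python 3.11.15 served for tables and figures. Scripts were tested on simulated data.

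Named genes were all members and their probesets, from each further list the 3 genes with the smallest feed efficiency p and the 3 with the largest litter F, the 10 most and 3 least like the mean of the members, and at most 3 markers per cell type list. Genes nearest to single members were added after seeing the data. Alternatives were other filters, array scalings, covariates, blocks, array weights and second brightest probesets, and each pig or litter left out. Replicate numbers pair no pigs, but each sow gave 1 pig of each sex to each group, and this pair served as a block. Slaughter batch, part of the authors' model, was not used here.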

Additional observations from a re-analysis of the deposited data

Results flagged for a closer look

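Each member probeset was examined for a pig far from the others, in the efficiency groups of 10 and in the litters of 4, 126 groups in all. A pig was singled out when its gap to the nearest value exceeded Dixon's 95% critical share of the group's range. Chance marks about 1 in 20 such groups, or 6.3 of 126, and 10 were marked. The groups share pigs.

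The high-efficiency female of sow 1417 had 10.97 for SLA-1 probeset 1 where the next high-efficiency pig had 10.16, and the low-efficiency male of sow 1417 had 10.97 where the next low-efficiency pig had 9.99. The same male had 8.85 for SLA-3 probeset 1, against 10.53 in the next pig. SLA-1 probeset 2, a dim probeset, was 4.63 in the high-efficiency female of sow 1411, far from the high-efficiency group (next 2.81) and from the litter (next 1.21).

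In the litter of sow 1410, the low-efficiency male had 9.62 for SLA-3 probeset 2, against 10.74 in the nearest littermate. In the litter of sow 1435, the high-efficiency male had 6.44 for TAP1, against 6.85. In the litter of sow 1406, the high-efficiency male had 10.18 for TAP2, against 9.86, the low-efficiency male had 7.13 for PSMB9 probeset 3, against 7.78, and the high-efficiency female had 2.81 for PSMB9 probeset 4, against 4.42.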

How the results depend on the processing

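The counts of class I genes called for feed efficiency, litter, sex, the interaction and co-variation were 0 under every alternative run. Across all results and alternatives, 899 values kept their direction and side of the threshold or, for counts, stayed within a factor of 1.5, 20 counts moved and 9 values changed sign. All 20 moved counts were the number of class I genes with an unadjusted p under 0.05 for feed efficiency, 1 in the report. It was 2 with the pair of sow and sex as a replicate block, with pig number as covariate, with probesets above the median mean, with the second brightest probesets and without the litter of sow 1411, 0 with quantile normalization and without the litters of sows 1406 or 1417, and between 0 and 2 when 1 pig was left out. The block changed no other call.

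The feed efficiency difference of TAP1 turned to -0.12 without the litter of sow 1406 and to -0.016 without that of sow 1417, and ran from -0.086 to 0.11 over the pigs left out, with -0.086 without the low-efficiency male of sow 1406, -0.016 without the high-efficiency male of sow 1406 and -0.0044 without the high-efficiency female of sow 1417. That of SLA-3 turned to -0.011 without the litter of sow 1406, and ran from -0.053 to 0.33 over the pigs left out, with -0.053 without the low-efficiency male and -0.0096 without the high-efficiency male of sow 1417. The within-litter correlation of SLA-1 and SLA-3 turned to 0.48 without the litter of sow 1417. The cause was not tested. The pig and litter runs for SLA-3 probeset 2 and for the genes nearest to TAP1 and PSMB9 were chosen after seeing the data.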
